A study of Bos taurus with 92 samples.

Results

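The nuclear genes for mitochondrial protein synthesis and import were examined in single bovine blastocysts. A mitochondrion makes a few subunits of its respiratory chain on a ribosome of its own, whose proteins (MRPL for the large and MRPS for the small subunit) are encoded in the nucleus. These and nearly all other mitochondrial proteins enter through the translocase of the outer membrane (TOMM) and are passed on by translocases and small chaperones inside (TIMM). Release and elongation factors act on that ribosome, NDUFAF proteins help to assemble complex I, and SLC25A carriers move metabolites across the inner membrane. Blastocysts inherit their mitochondria from the oocyte. The genes were chosen by name alone: a probe belonged to the set when its only gene symbol started with MRPL, MRPS, TOMM, TIMM, NDUFAF or SLC25A and a number, with MTERF, MTIF or MTRF, or was TUFM, TSFM or a GFM gene. This gave 72 of 8208 probes and 66 genes, all of which were among the 4398 genes tested. They were 27 large and 12 small subunit genes, 10 import genes, 5 factors of mitochondrial gene expression, 2 assembly factors and 10 carriers, and 6 of the 66 had 2 probes.

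The 44 embryos were 14 from artificial insemination (AI), 15 from in vitro fertilisation (IVF) and 15 from nuclear transfer (NT, in which a somatic nucleus replaces that of the oocyte), and 2 samples were of donor cells. Each was set against the same reference RNA on 2 custom cDNA arrays with swapped dyes. The labels give no animals, cultures, ages or hybridisation dates and do not explain why the names of 3 AI embryos start with H, those of 8 NT embryos with 2_ and those of 7 with 3_. A possible batch and the kind of embryo therefore cannot be told apart, and p-values measure only the spread between these samples, which may be technical. Per the labels' protocols, embryo and donor RNA had 1 more round of linear amplification than the reference, and the type of the donor cells is not given. A level below is a log2 ratio of sample to reference, centred on the median probe of its array, and a difference is that of 2 group means on this log2 scale, ± its standard error (SE). Values are thus relative to the typical probe, and levels of different genes cannot be compared. Adjusted p comes from limma over 4398 genes with the Benjamini-Hochberg method, and a gene "rose" or "fell" where it was under 0.05.

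That the deposited ratio is Cy5 over Cy3 is likely rather than certain. Under that reading, the mean level of 13 fibroblast markers was -2.34 to -1.68 in embryos and 0.84 and 0.90 in donor cells. The mean of 21 trophectoderm markers was 1.06 to 2.38 in embryos and -0.25 and -0.11 in donor cells. With the opposite reading the sign of every level and difference below would turn, and correlations would not. The 2 arrays of an embryo correlated with r of 0.548 to 0.764 and those of a donor cell sample with 0.248 and 0.325. Duplicate spots had a median r of 0.793, and 1.51% to 5.37% of values were missing per group. The number of samples limits the precision.

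Genes of this set were mostly lower in IVF than in AI embryos, and fewer of them differed between NT and AI embryos. The median level of the 66 genes in an embryo was 0.19 to 0.66 (median 0.40) in AI, -0.05 to 0.28 (median 0.12) in IVF and 0.18 to 0.56 (median 0.31) in NT embryos. The IVF values overlapped with both others at their upper end, and both donor samples, at -0.25 and -0.16, were below every embryo. Between IVF and AI embryos 6 genes rose and 26 fell, which is 9.09% and 39.4% of the 66, against 13.2% and 15.9% of all genes tested. The median difference was -0.27, and 0.01 over all genes. Between NT and AI embryos 2 rose and 7 fell, with a median of -0.09, against 3.55% and 4.41% of all genes and an overall median of 0.02. Between NT and IVF embryos 19 rose and 4 fell, with a median of 0.17, against 14.1% and 10.1% of all genes and an overall median of 0.00. The 26, the 7 and the 19 include TOMM7, which was chosen for its fall from AI to IVF embryos. These 3 comparisons share their samples, so that they are not independent of each other. In 26 of the 66 genes (39.4%), and in 60.5% of all genes tested, no comparison of embryos passed the threshold.

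Centring mattered for NT embryos. Without it, the median difference of all genes was 0.44 between NT and AI embryos and 0.38 between NT and IVF embryos. Members then split into 17 higher and 0 lower of 66 between NT and AI embryos, against 45.0% and 0.432% of all genes, and into 37 and 0 between NT and IVF embryos, against 38.9% and 1.02% of all genes. Relative to the median of all genes the members' median was -0.11 between NT and AI and 0.17 between NT and IVF embryos in both cases. Between IVF and AI embryos the uncentred split was 3 higher and 12 lower, against 7.82% and 8.05% of all genes. Leaving TOMM7 aside, the calls that held under every alternative run and every left-out sample were those of TOMM22, TOMM34, MRPL24, MRPL27, MRPL48, MRPL51, MRPS17, MRPS33 and MRPS34 between IVF and AI embryos. Between NT and IVF embryos they were those of TIMM8A, MRPL48, MRPL50, MRPS17, MRPS22, MRPS34, SLC25A5 and SLC25A6. Between NT and AI embryos 0 of 9 calls in limma held under all of them. Some markers of cell types also differed. Of 4 cumulus and granulosa cell markers, HSD3B1 and CYP11A1 rose and 0 fell in IVF against AI embryos, against 13.2% and 15.9% of all genes. The mean of the 4 was -0.96 to 0.12 in AI, -0.54 to 0.43 in IVF and -0.94 to 0.08 in NT embryos. Between IVF and AI embryos 1 rose and 2 fell of 13 fibroblast markers. Of 5 inner cell mass and primitive endoderm markers, and of 3 blood cell markers, 1 each rose and 0 fell there. Of 21 trophectoderm markers 3 rose and 5 fell in IVF against AI, 0 and 4 in NT against AI, and 2 and 7 in NT against IVF embryos. For all genes the shares were 13.2% and 15.9%, 3.55% and 4.41%, and 14.1% and 10.1%. The mean of the 21 had its median at 1.85 in AI, 1.90 in IVF and 1.60 in NT embryos. The part of all these markers in the results was not tested, and in whole embryos fewer cells of a type and less RNA per cell cannot be told apart.

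**Figure D1:**
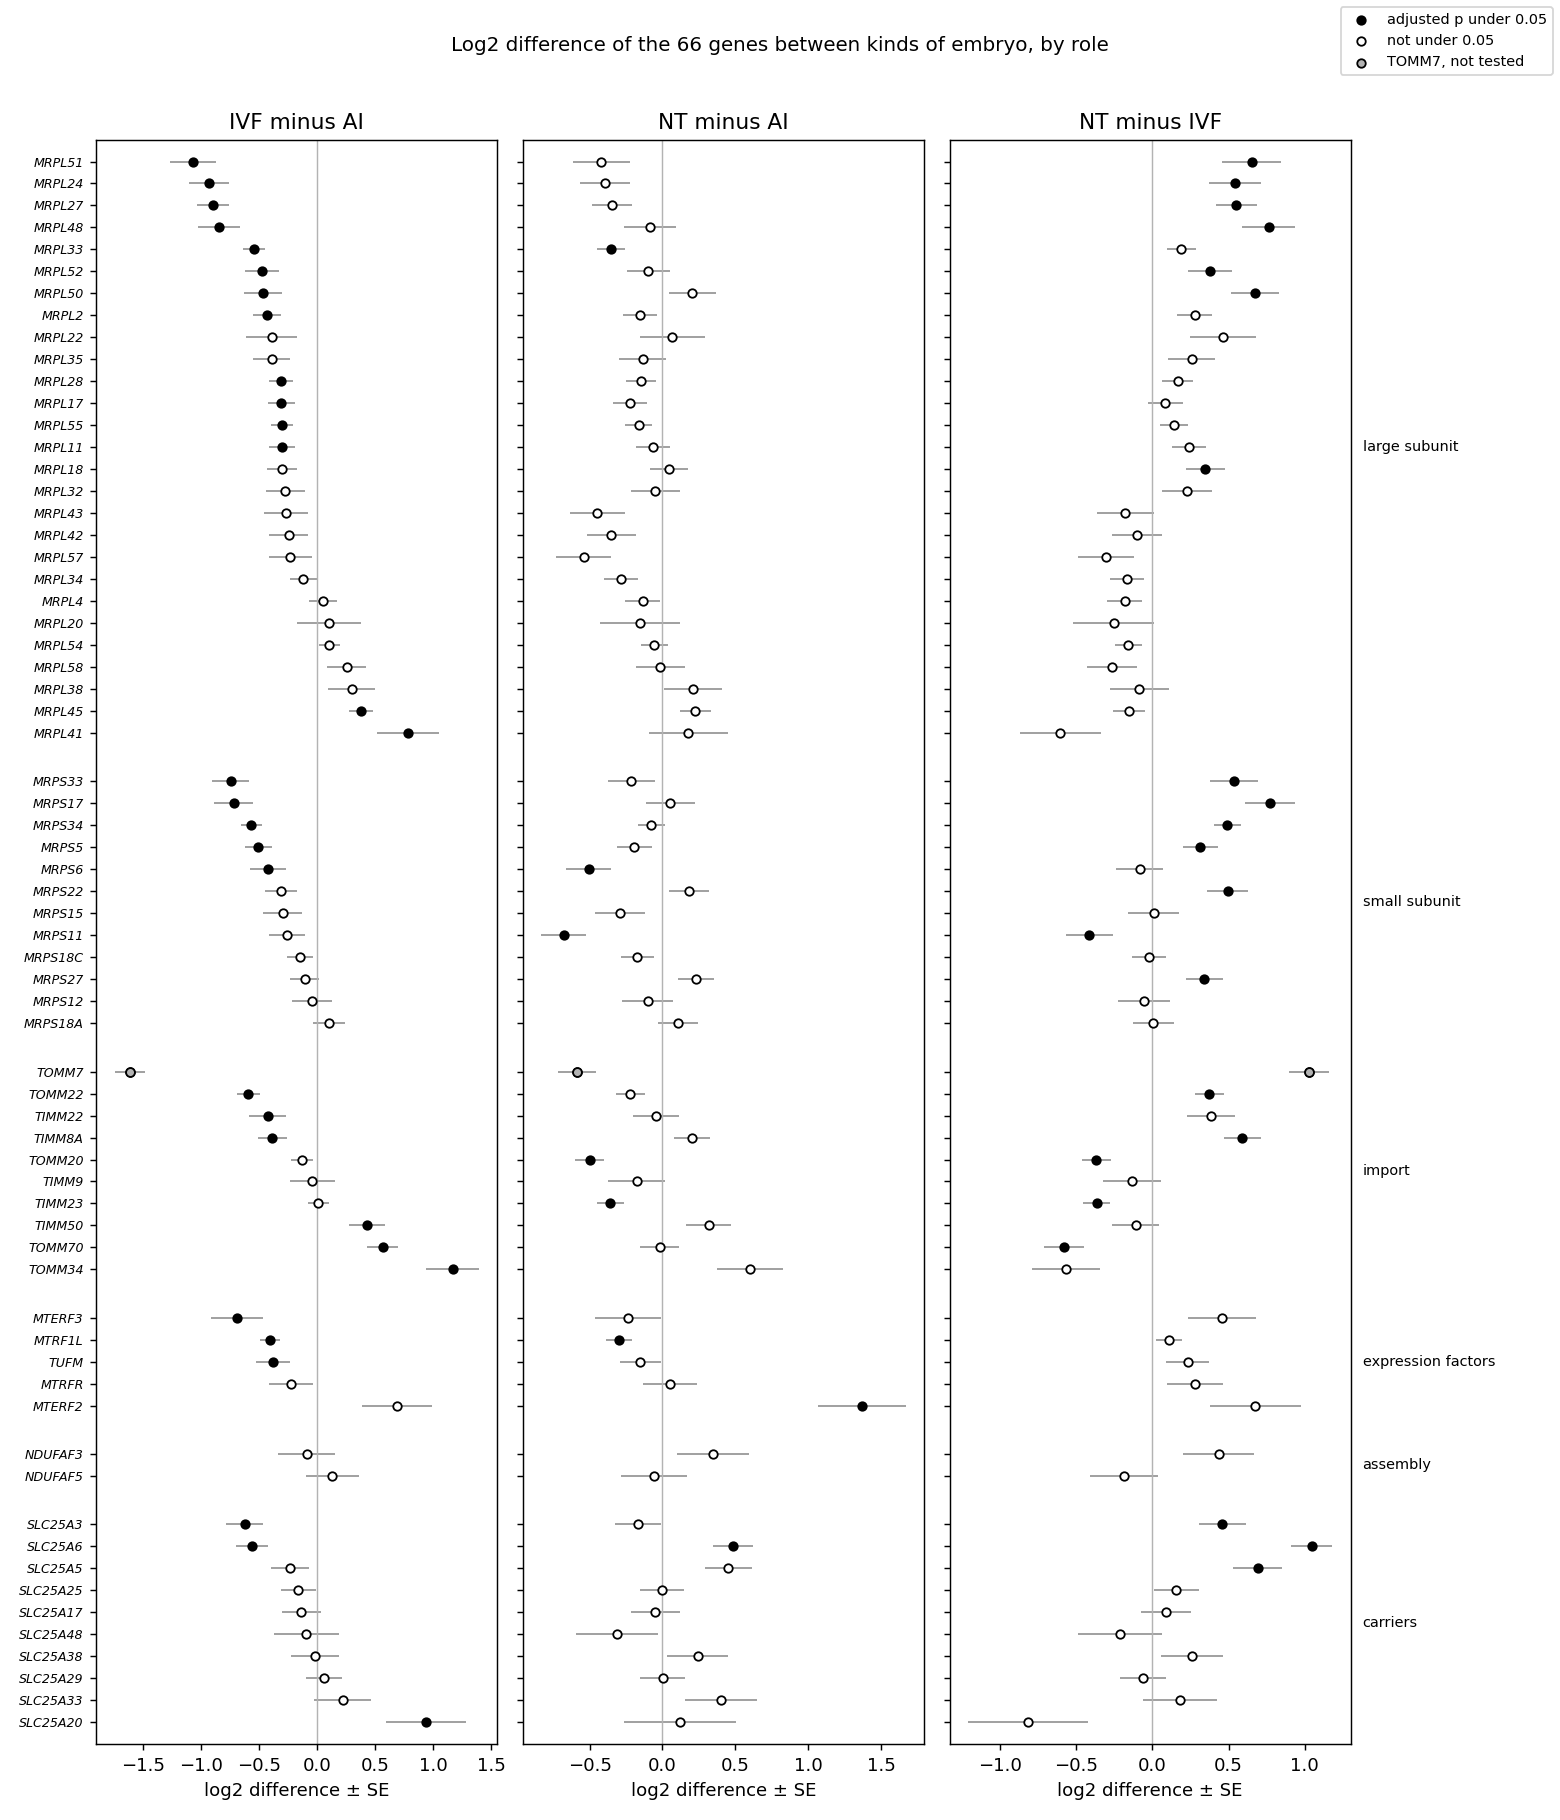
Log2 difference (dot) with its SE (bar) for each of the 66 genes in the 3 comparisons of embryos, grouped by role and ordered by the IVF minus AI value. Black dots had an adjusted p under 0.05, and the grey dots of TOMM7 are given without a test. Most black dots lie left of 0 for IVF minus AI and right of 0 for NT minus IVF, and few are black for NT minus AI.

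Import genes moved in both directions. TOMM7, a small subunit that tunes the assembly of the outer membrane translocase, ranged over 0.99 to 1.71 (median 1.37) in AI, -0.99 to 0.57 (median -0.26) in IVF and 0.17 to 1.26 (median 0.84) in NT embryos. All 15 IVF embryos were below the lowest AI embryo, and 9 of 15 NT embryos were above the highest IVF embryo. The IVF minus AI difference was -1.62 ± 0.13, a 3.07-fold lower level and the 10th lowest of 4398 genes. It was the value for which the gene was singled out, so that comparisons with AI or IVF embryos are given without a test. NT embryos exceeded IVF embryos by 1.03 ± 0.13. Against AI embryos NT embryos were lower by a difference of -0.59 ± 0.13, with 15 of 15 below the AI mean and 11 below the lowest AI embryo. That difference was -0.17 with uncentred arrays. The order of TOMM7 levels was thus AI, NT, IVF and donor cells, the last at -1.36 and -0.72. Of the 2 donor values 1 lay below every embryo and the other within the IVF range.

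TOMM22, the central receptor of the same translocase, was at 0.74 to 1.46 (median 1.11) in AI and 0.01 to 0.89 (median 0.49) in IVF embryos, and 11 of 15 IVF embryos lay below the lowest AI embryo. It fell by 0.59 ± 0.10 (adjusted p = 8.05e-06) and was higher in NT than in IVF embryos (0.37 ± 0.10, adjusted p = 0.00316). The receptors did not all move this way. TOMM70, which takes in carrier precursors from cytosolic chaperones, was at 0.32 to 1.87 (median 0.91) in AI, 0.92 to 2.32 (median 1.63) in IVF and 0.50 to 1.50 (median 0.87) in NT embryos. Only the IVF embryos stood higher, with overlap, by 0.56 ± 0.14 over AI (adjusted p = 0.0012), and NT minus IVF was -0.58 ± 0.13 (adjusted p = 8.67e-04). TOMM34, a cytosolic cochaperone of import, was at -2.28 to -0.35 (median -1.20) in AI, -1.71 to 0.74 (median -0.07) in IVF and -1.61 to 0.14 (median -0.56) in NT embryos. Of the IVF embryos 11 of 15 were above the highest AI embryo, a rise of 1.17 ± 0.23 (adjusted p = 1.01e-04). The NT minus AI value of TOMM34, 0.60 ± 0.23, did not pass the threshold.

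TOMM20, the receptor for cleavable presequences, was lowest in NT embryos. Its level was 0.66 to 1.49 (median 1.24) in AI, 0.60 to 1.37 (median 1.09) in IVF and 0.17 to 1.14 (median 0.64) in NT embryos, and 10 of 15 NT embryos were below the lowest AI embryo. NT minus AI was -0.50 ± 0.10 (adjusted p = 5.18e-04) and NT minus IVF -0.37 ± 0.10 (adjusted p = 0.00323), whereas IVF minus AI was -0.13 ± 0.10 and did not pass. TIMM23, the channel of the presequence translocase of the inner membrane, was likewise lowest in NT embryos, at 3.95 to 4.68 (median 4.32) in AI, 3.88 to 4.99 (median 4.32) in IVF and 3.61 to 4.14 (median 3.97) in NT embryos. All 15 NT embryos were below both the AI and the IVF mean, by -0.36 ± 0.09 (adjusted p = 0.0103) and -0.37 ± 0.09 (adjusted p = 0.00221). Without centring, TIMM23 turned to 0.063 against AI and 0.010 against IVF embryos, and TOMM20 to 0.00865 against IVF embryos. The TOMM20 call against AI embryos was lost without centring (-0.080) and with Cy3 arrays alone (-0.20), and that against IVF embryos also with the 3_ embryos alone. The TIMM23 call against AI embryos was also lost with quantile normalization (-0.15), a common median absolute deviation (-0.15), Cy3 arrays alone (-0.088) and the 3_ embryos alone (-0.29), and that against IVF embryos with Cy3 arrays alone and the 3_ embryos alone. TIMM50, the receptor that hands presequences to TIMM23, rose in IVF over AI embryos by 0.43 ± 0.16 (adjusted p = 0.0338). TIMM22, the channel for carriers, fell (-0.43 ± 0.16, adjusted p = 0.0369), and so did the small chaperone TIMM8A (-0.39 ± 0.12, adjusted p = 0.0149), which in NT embryos was above the IVF mean in 15 of 15 (0.59 ± 0.12, adjusted p = 2.66e-04). The call of TIMM50 was lost when any 1 of 4 embryos was left out (adjusted p up to 0.0774), and that of TIMM22 for any 1 of 7 (up to 0.0673). TIMM9, another of the small chaperones, was the only import gene with no call between embryos, at -0.04 ± 0.19 for IVF minus AI. Over the role, IVF minus AI gave 3 higher and 4 lower of 10, NT minus AI 0 and 3, and NT minus IVF 3 and 3. The shares of all genes were 13.2% and 15.9%, 3.55% and 4.41%, and 14.1% and 10.1%. TOMM7, chosen for its fall, is counted as lower in IVF minus AI and NT minus AI and as higher in NT minus IVF.

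**Figure D2:**
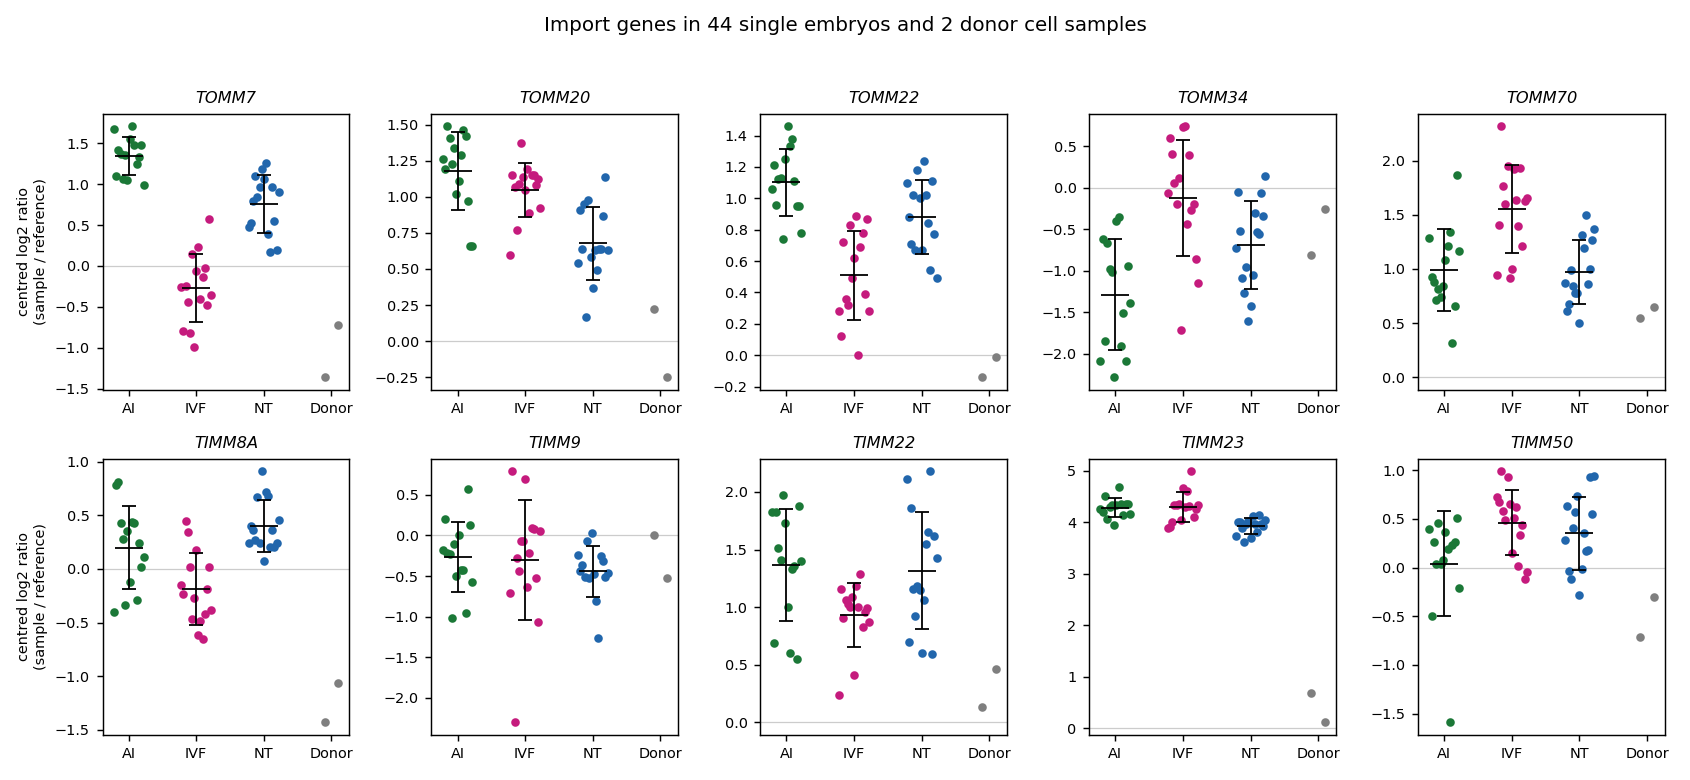
Centred log2 ratio of the 10 import genes in each sample (dots: 14 AI, 15 IVF and 15 NT embryos, 2 of donor cells), with the mean and SD over embryos (bars). IVF embryos lie lowest among embryos for TOMM7 and TOMM22 and highest for TOMM34 and TOMM70, and TIMM23 is at 3.61 to 4.99 in embryos and at 0.12 and 0.69 in donor cells.

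Large subunit genes of the mitochondrial ribosome fell in IVF embryos more often than they rose, with 12 lower and 2 higher of 27 against AI embryos and a median difference of -0.30. The shares of all genes were 15.9% lower and 13.2% higher. MRPL51 was at 0.40 to 1.67 (median 0.79) in AI, -1.34 to 0.72 (median -0.25) in IVF and -0.98 to 1.09 (median 0.47) in NT embryos. All 15 IVF embryos were below the AI mean and 11 below the lowest AI embryo, a fall of 1.07 ± 0.20 (adjusted p = 4.66e-05) seen with both of its probes (-1.30 and -0.84). MRPL27 was at -0.17 to 0.97 (median 0.56), -1.20 to 0.18 (median -0.23) and -0.46 to 0.92 (median 0.17) in AI, IVF and NT embryos, with 10 IVF embryos below the lowest AI embryo. Its IVF minus AI difference was -0.90 ± 0.14 (adjusted p = 2.20e-06). MRPL48 was at 0.47 to 1.79 (median 1.07) in AI, -0.81 to 1.07 (median 0.11) in IVF and -0.16 to 1.38 (median 1.05) in NT embryos. The IVF embryos were lower with some overlap (-0.85 ± 0.18, adjusted p = 2.92e-04), and NT minus AI was -0.08 ± 0.18 and did not pass. MRPL24 fell by a similar amount (-0.94 ± 0.17, adjusted p = 4.31e-05) and MRPL33 by less (-0.54 ± 0.10, adjusted p = 2.28e-05). The other 7 that fell were MRPL52, MRPL50, MRPL2, MRPL28, MRPL17, MRPL55 and MRPL11, at -0.47 to -0.30. Of these, MRPL17 lost its call when any 1 of 12 embryos was left out and MRPL11 for any 1 of 11 (adjusted p up to 0.0889 and 0.0881). For MRPL28 neither probe passed alone (-0.18 and -0.44).

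The 2 large subunit genes that rose in IVF over AI embryos were MRPL41 and MRPL45. MRPL45, which takes part in anchoring the ribosome to the inner membrane, was at 0.03 to 1.01 (median 0.64) in AI and 0.58 to 1.22 (median 0.99) in IVF embryos, and its IVF values had the smallest spread of the 66 genes (SD 0.17). All 15 IVF embryos were above the AI mean (0.38 ± 0.11, adjusted p = 0.0056). MRPL41 ranged over -1.04 to 1.54 (median 0.35) in AI and 0.36 to 1.85 (median 1.26) in IVF embryos, with wide overlap (0.78 ± 0.27, adjusted p = 0.0218). Its call was lost with Cy3 arrays alone (0.61) and without the H-labelled AI embryos (0.75), and that of MRPL45 without centring and with Cy5 arrays alone. In NT embryos 7 large subunit genes rose over IVF embryos and 0 fell, against 14.1% and 10.1% of all genes. They were MRPL48 (0.76 ± 0.18, adjusted p = 9.63e-04), MRPL50 (0.67 ± 0.16, adjusted p = 0.00132), MRPL51 (0.65 ± 0.19), MRPL27 (0.55 ± 0.13), MRPL24 (0.54 ± 0.17), MRPL52 (0.38 ± 0.14) and MRPL18 (0.35 ± 0.13), the last 5 with an adjusted p of 0.00191 to 0.047. The calls of MRPL52 and MRPL18 were lost when any 1 of 21 and 14 embryos was left out (adjusted p up to 0.0821 and 0.0702). For MRPL51 only 1 probe passed (0.84), and the other was at 0.46. Against AI embryos, NT embryos differed past the threshold in MRPL33 alone among the 27 (-0.35 ± 0.10, adjusted p = 0.0152), which turned to 0.067 without centring. The 12 large subunit genes with no call between embryos were MRPL4, MRPL20, MRPL22, MRPL32, MRPL34, MRPL35, MRPL38, MRPL42, MRPL43, MRPL54, MRPL57 and MRPL58, the last a peptidyl-tRNA hydrolase that rescues stalled ribosomes. Their differences ran from -0.54 (MRPL57, NT minus AI) to 0.46 (MRPL22, NT minus IVF).

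Among the 12 small subunit genes 5 fell and 0 rose in IVF against AI embryos, with a median difference of -0.31. Of all genes 15.9% fell and 13.2% rose. MRPS34 had the most even level of the set in AI embryos, 0.12 to 0.56 (median 0.42) with an SD of 0.14, and lay at -0.91 to 0.11 (median -0.08) in IVF and -0.03 to 0.83 (median 0.30) in NT embryos. The lowest AI embryo, at 0.12, lay just above the highest IVF embryo, at 0.11, and 13 of 15 NT embryos were above the highest IVF embryo. MRPS34 differed by -0.57 ± 0.09 between IVF and AI (adjusted p = 4.67e-06) and by 0.49 ± 0.09 between NT and IVF embryos (adjusted p = 4.61e-05). MRPS17 was at -0.27 to 1.05 (median 0.50) in AI, -1.51 to 0.66 (median -0.19) in IVF and 0.07 to 1.28 (median 0.55) in NT embryos. IVF embryos were lower (-0.72 ± 0.17, adjusted p = 9.65e-04) and NT minus AI was 0.05 ± 0.17 and did not pass. MRPS33 (-0.75 ± 0.16, adjusted p = 4.26e-04), MRPS5 (-0.51 ± 0.12, adjusted p = 9.32e-04) and MRPS6 (-0.42 ± 0.16, adjusted p = 0.0347) also fell in IVF embryos, the last not when any 1 of 8 embryos was left out (adjusted p up to 0.0693).

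NT embryos had higher levels than IVF embryos in 6 small subunit genes and a lower level in 1, against 14.1% and 10.1% of all genes. The 6 were MRPS17 (0.77 ± 0.17, adjusted p = 4.34e-04), MRPS33 (0.54 ± 0.16), MRPS22 (0.49 ± 0.13), MRPS34, MRPS27 (0.34 ± 0.12) and MRPS5 (0.31 ± 0.12), all with an adjusted p of 0.0415 or less. The gene with a lower level was MRPS11, at -0.74 to 0.94 (median 0.19) in AI, -0.71 to 0.49 (median -0.13) in IVF and -1.09 to 0.22 (median -0.56) in NT embryos. The NT embryos were lowest with overlap, by -0.68 ± 0.15 against AI (adjusted p = 0.00342) and -0.41 ± 0.15 against IVF embryos (adjusted p = 0.0403). The call against AI embryos was lost without centring (-0.26) and with the 3_ embryos alone (-0.65). The call against IVF embryos was lost when any 1 of 14 embryos was left out (adjusted p up to 0.0720), as were those of MRPS5 for any 1 of 17 and MRPS27 for any 1 of 8. MRPS6 was lower in NT than in AI embryos as well (-0.51 ± 0.16, adjusted p = 0.0338), a call lost when any 1 of 6 embryos was left out (adjusted p up to 0.0591). The probes of MRPS12 disagreed, at 0.63 and -0.85 for NT minus AI, and its mean passed in no comparison of embryos. MRPS15, MRPS18A and MRPS18C had no call between embryos either, with differences from -0.30 (MRPS15, IVF minus AI) to 0.11 (MRPS18A, NT minus AI).

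**Figure D3:**
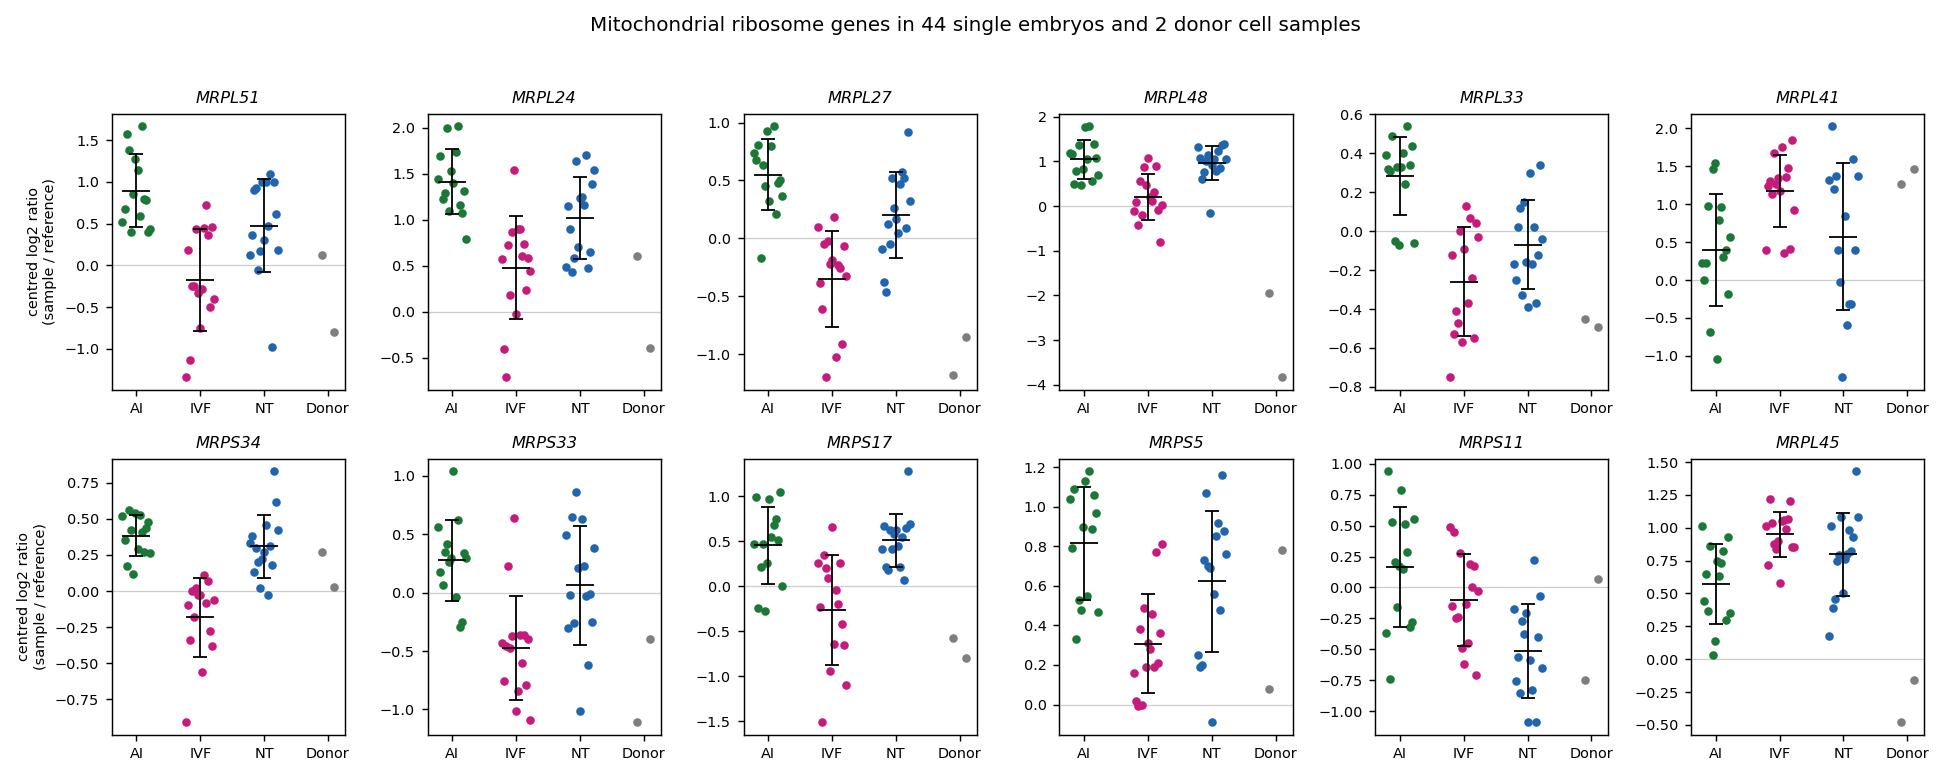
Centred log2 ratio of 12 mitochondrial ribosome genes in each sample (dots: 14 AI, 15 IVF and 15 NT embryos, 2 of donor cells), with the mean and SD over embryos (bars). MRPS34 is lower in IVF than in AI embryos, MRPL41 and MRPL45 are higher in IVF embryos, and MRPL48 is at -0.81 to 1.79 in embryos and at -3.83 and -1.95 in donor cells.

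Of the 5 expression factors, 3 fell in IVF against AI embryos and 0 rose, against 15.9% and 13.2% of all genes. MTERF3, a member of the MTERF family that acts in mitochondrial transcription and ribosome assembly, differed by -0.69 ± 0.22 (adjusted p = 0.0162), the release factor MTRF1L by -0.41 ± 0.09 (adjusted p = 3.83e-04) and the elongation factor TUFM by -0.38 ± 0.14 (adjusted p = 0.0385). TUFM lost its call when any 1 of 13 embryos was left out (adjusted p up to 0.0714). The fall of MTRF1L was -0.22 with 1 of its probes, which did not pass, and -0.59 with the other. MTERF2, a DNA-binding relative of MTERF3, had the widest AI spread of the set and moved in NT embryos. Its level was -3.54 to -0.51 (median -2.32) in AI, -2.75 to -0.28 (median -1.70) in IVF and -2.27 to 0.53 (median -0.93) in NT embryos, so that 14 of 15 NT embryos were above the AI mean and 6 above the highest AI embryo. NT minus AI was 1.37 ± 0.30 (adjusted p = 0.00241), a 2.58-fold higher level and the largest difference of the set in that comparison, and it missed the threshold with the NT embryos labelled 2_ alone (1.17). The IVF minus AI value of MTERF2, 0.69 ± 0.30, and the NT minus IVF value, 0.68 ± 0.30, did not pass. MTRF1L was lower in NT than in AI embryos (-0.30 ± 0.09, adjusted p = 0.028), a call lost without AI embryo 13 or NT embryo 3_4 (adjusted p up to 0.0555), and turned to 0.12 without centring. MTRFR, a factor that frees stalled ribosomes, and the complex I assembly factors NDUFAF3 and NDUFAF5 had no call between embryos. For NDUFAF3 the values were -0.09 ± 0.24 for IVF minus AI and 0.34 ± 0.25 for NT minus AI, and for NDUFAF5 0.13 ± 0.23 and -0.06 ± 0.23.

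The carriers that differed were mainly those of phosphate and adenine nucleotides, which feed ATP synthesis. SLC25A6, an ADP/ATP carrier, was at -0.94 to 0.50 (median -0.23) in AI, -1.43 to -0.31 (median -0.86) in IVF and -0.46 to 0.78 (median 0.17) in NT embryos. IVF embryos were lowest and NT embryos highest: 13 of 15 NT embryos were above the highest IVF embryo and 15 of 15 IVF embryos below the AI mean. SLC25A6 differed by 1.05 ± 0.14 between NT and IVF (adjusted p = 1.60e-07), -0.56 ± 0.14 between IVF and AI (adjusted p = 0.00163) and 0.48 ± 0.14 between NT and AI embryos (adjusted p = 0.0221). The last turned to -0.062 with the Cy3 arrays alone. SLC25A5, a near-identical ADP/ATP carrier, was at 1.49 to 3.24 (median 2.58) in AI, 1.45 to 3.35 (median 2.22) in IVF and 2.54 to 3.51 (median 3.08) in NT embryos, where all NT embryos were above the IVF mean (0.69 ± 0.16, adjusted p = 0.00103). A cDNA probe can bind transcripts of both, so that the share of each gene in these values is uncertain. SLC25A3, the phosphate carrier, fell in IVF against AI embryos (-0.63 ± 0.16, adjusted p = 0.00183) and was higher in NT than in IVF embryos (0.46 ± 0.15, adjusted p = 0.0234). SLC25A20, the carnitine-acylcarnitine carrier of fatty acid oxidation, was the only carrier that rose in IVF over AI embryos (0.94 ± 0.35, adjusted p = 0.0397). It had values in 13 AI, 11 IVF and 8 NT embryos, the largest SD of the set in IVF (0.93) and NT embryos (1.06), and lost its call when any 1 of 9 embryos was left out (adjusted p up to 0.0896). The other 6 had no call between embryos: the peroxisomal SLC25A17, SLC25A25, SLC25A29, SLC25A33, SLC25A38, which is needed for heme synthesis, and SLC25A48. They ran from -0.31 (SLC25A48) to 0.40 (SLC25A33), both for NT minus AI.

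**Figure D4:**
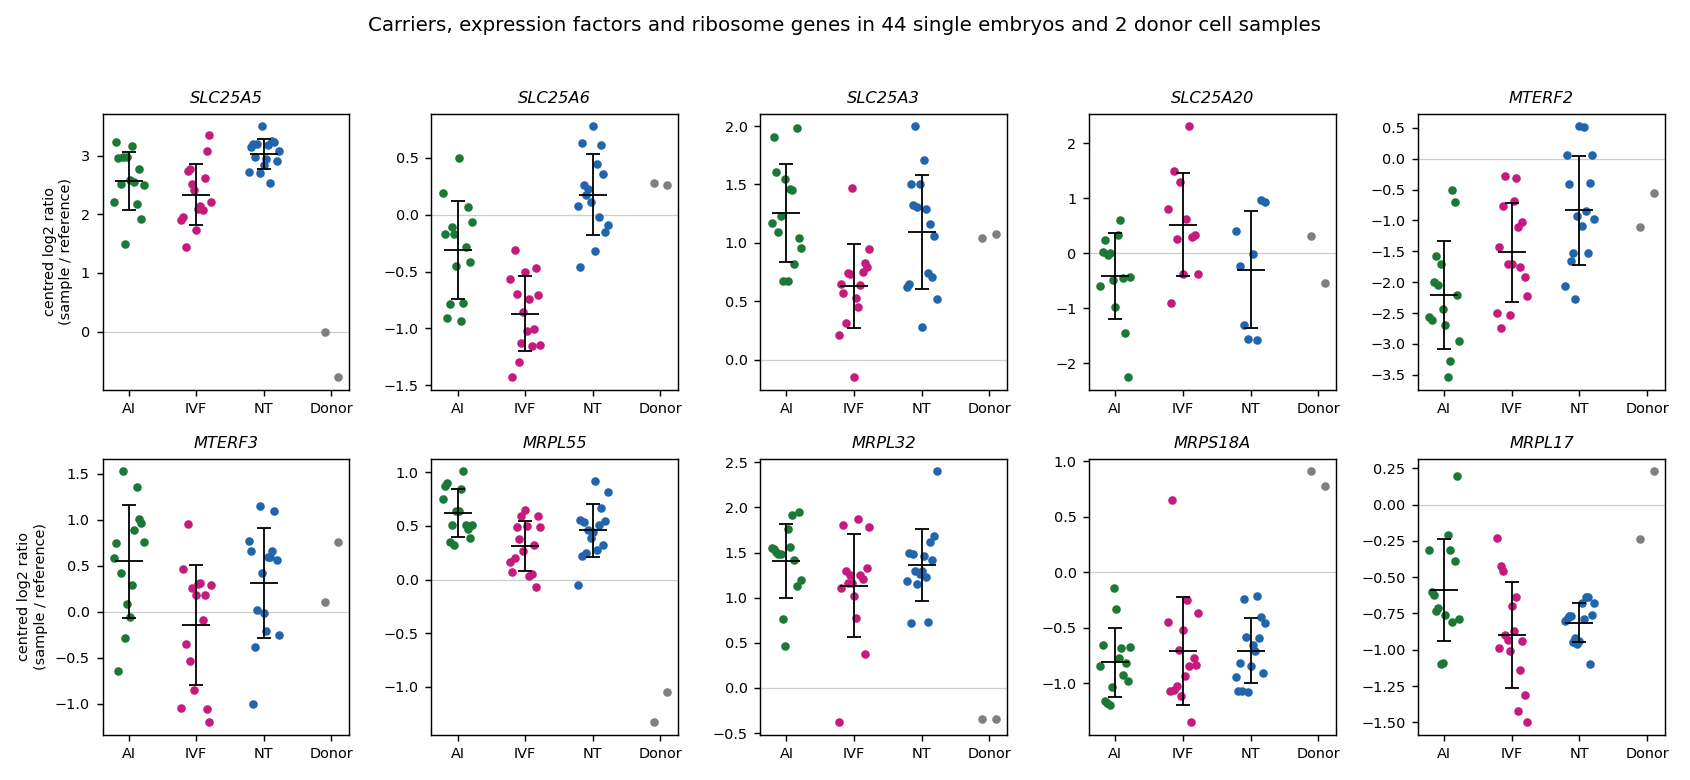
Centred log2 ratio of 4 carriers, 2 expression factors and 4 ribosome genes in each sample (dots: 14 AI, 15 IVF and 15 NT embryos, 2 of donor cells), with the mean and SD over embryos (bars). NT embryos are highest for SLC25A6 and MTERF2, SLC25A5 is at 1.45 to 3.51 in embryos and at -0.78 and 0.00 in donor cells, and MRPS18A is higher in donor cells.

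Donor cells had lower levels of many of these genes than AI and NT embryos, and of fewer than IVF embryos. In AI embryos 28 of 66 rose over donor cells and 2 fell (42.4% and 3.03%), against 20.5% and 16.5% of all genes. In NT embryos 25 rose and 2 fell (37.9% and 3.03%), against 19.9% and 15.4% of all genes. In IVF embryos 16 rose and 5 fell (24.2% and 7.58%), against 18.3% and 16% of all genes, so that the share of rises was near that of all genes. The median differences in AI, IVF and NT embryos were 0.56, 0.42 and 0.41, and 0.01, 0.02 and 0.03 over all genes. TIMM23 was at 3.61 to 4.99 in the 44 embryos and at 0.12 and 0.69 in donor cells. No embryo came near them: the differences were 3.88 ± 0.19 for AI (adjusted p = 2.67e-22), 3.89 ± 0.19 for IVF and 3.52 ± 0.19 for NT embryos, a 14.7-fold higher level in AI embryos. MRPL48 was at -0.81 to 1.79 in embryos and -3.83 and -1.95 in donor cells, with differences of 3.93 ± 0.36, 3.09 ± 0.36 and 3.85 ± 0.36 for AI, IVF and NT embryos. Both donor values were below every embryo, and they lay farther from each other than the higher of them from the lowest embryo. SLC25A5 was at 1.45 to 3.51 in embryos and -0.78 and 0.00 in donor cells, and rose by 2.97 ± 0.33, 2.73 ± 0.33 and 3.42 ± 0.33.

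MRPL55, MRPL32, TIMM8A, MRPL45 and TOMM7 were further large rises. MRPL55 rose by 1.81 ± 0.19 in AI, 1.50 ± 0.19 in IVF and 1.65 ± 0.19 in NT embryos, MRPL32 by 1.75 ± 0.34, 1.47 ± 0.34 and 1.70 ± 0.34, and TIMM8A by 1.65 ± 0.25 in NT embryos. MRPL45 rose by 1.27 ± 0.22 in IVF embryos. TOMM7 was higher by 1.80 ± 0.27 in NT embryos than in donor cells (adjusted p = 3.31e-07), and its AI and IVF values minus donor cells, given without a test, were 2.39 ± 0.27 and 0.77 ± 0.27. Few genes went the other way. MRPS18A, a small subunit protein, was at -1.35 to 0.65 in embryos and 0.78 and 0.91 in donor cells, and fell by 1.66, 1.56 and 1.55 in AI, IVF and NT embryos (adjusted p of 4.45e-06 to 1.47e-05). MRPL17 was lower in all 3 kinds too (-0.58 ± 0.24, -0.89 ± 0.24 and -0.81 ± 0.24), but its call failed in each without donor cell sample 9. In AI embryos its call also failed without donor cell sample 8 and without any 1 of AI embryos 3, 5, 13, 14, 15, 16, 17 and H5. It failed there too without centring, with quantile normalization, with Cy3 arrays alone and with the compared groups alone. In IVF embryos SLC25A6 (-1.14 ± 0.28, adjusted p = 0.00113), MRPL28 (-0.53 ± 0.21) and MTRF1L (-0.46 ± 0.18) fell below donor cells as well. The SLC25A6 call was lost with Cy5 arrays alone. The 2 probes of MRPL28 opposed each other, at -1.71 and 0.65, so that its mean gives no direction, and its call was lost for 7 left-out samples, either donor sample among them. MTRF1L turned to 0.19 with Cy3 arrays alone and lost its call without either donor sample.

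The counts against donor cells rest on 2 samples whose swapped arrays agreed least. Their p-values use a spread pooled over all 46 samples, which is mostly that of embryos. Without donor cell sample 9 the rises were 19, 13 and 16 in AI, IVF and NT embryos, against 13.6%, 11.6% and 13.3% of all genes. Without sample 8 they were 21, 11 and 19, against 13.6%, 11.7% and 13.1%. With Cy5 arrays alone they were 18, 7 and 12, against 13.9%, 11.5% and 13.1%, and the falls 2, 5 and 3, against 17.5%, 18.5% and 18.2%. With Cy3 arrays alone the rises were 31, 24 and 28, against 21.8%, 23.3% and 23.9%, and the falls 1, 3 and 2, against 11.6%, 12.1% and 11.4% of all genes. TIMM23, MRPL48, SLC25A5, MRPL55 and MRPL32 rose and MRPS18A fell in all 3 kinds under each of these settings and without either donor sample.

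Within a kind of embryo the genes varied about as much as other genes. The median SD over embryos was 0.42 in AI, 0.42 in IVF and 0.36 in NT embryos, and 0.44, 0.45 and 0.41 over all genes tested. The smallest SDs were those of MRPS34 in AI (0.14), MRPL45 in IVF (0.17) and MRPL17 in NT embryos (0.13), and the largest those of MTERF2 in AI (0.88) and SLC25A20 in IVF and NT embryos. Over embryos within kinds, Pearson's r between the 2 dye orientations of a gene had a median of 0.47 for the 66 genes (-0.20 to 0.85) and of 0.41 for all genes, a description over up to 44 embryos. TOMM7 was at 0.68, TOMM22 at 0.16 and TIMM23, whose embryos differed little, at -0.20. NT embryos labelled 2_ and 3_ differed in 0 of the 66 genes in limma, against 0% of all genes in either direction. At an unadjusted p under 0.05 there were 6, and the smallest adjusted p was 0.425 (MRPL38). The share of all genes at that unadjusted threshold was not counted, so that the 6 give no result about the set. AI embryos labelled H differed from the other AI embryos in 0 genes upwards and 1 downwards, against 0.296% and 0.591% of all genes. It was MRPL50 (-0.96 ± 0.25, adjusted p = 0.0448), a call lost without centring, with quantile normalization, with a common median absolute deviation and with Cy3 arrays alone. Here 3 of the 66 had an unadjusted p under 0.05, again without a share of all genes to set beside them.

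The levels most like that of TOMM7 were found by Pearson's r over the 44 embryos, given as a description because the kinds of embryo differ in TOMM7 and because genes of an embryo share its arrays. Over all 4397 other genes the highest were COX7A2, a subunit of cytochrome oxidase (0.90), the prefoldin subunit PFDN2 (0.85), the copper chaperone COX17 (0.85), the fucose kinase FCSK (0.85) and the transcription factor HES1 (0.83). Among the members they were TOMM22 (0.77), MRPL33 (0.71), MRPL27 (0.70), MRPS34 (0.61) and MRPL51 (0.61), and the lowest were SLC25A20 (-0.56, 32 embryos), TOMM34 (-0.55) and TOMM70 (-0.45). The median over the members was 0.21, and -0.01 over all genes. Taken within kinds, the values shrank: COX17 was at 0.64, COX7A2 at 0.54, TOMM22 at 0.41, MRPL33 at 0.38, MRPL27 at 0.17, MRPL51 at 0.10 and MRPS34 at -0.17, with a median of -0.01 over the members. For TOMM22 it was 0.28 over AI, 0.72 over IVF and 0.05 over NT embryos.

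**Figure D5:**
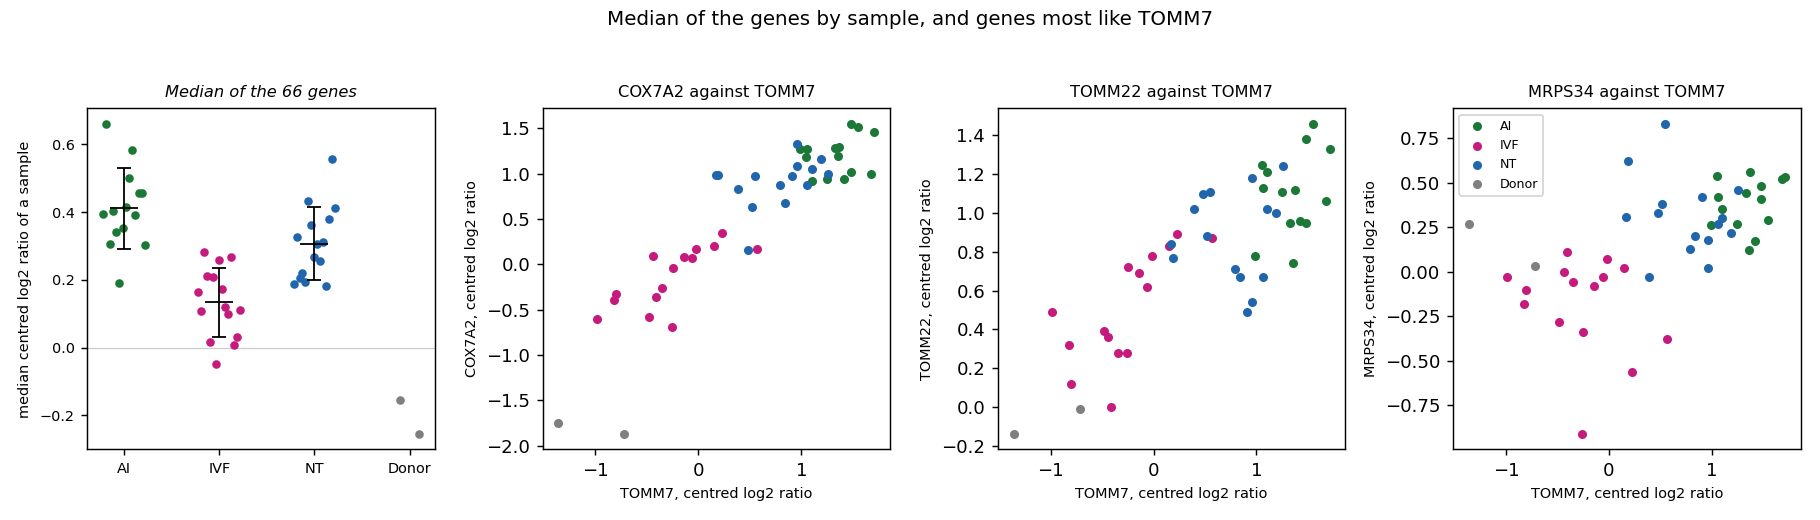
Left, the median centred log2 ratio of the 66 genes in each sample (dots) with the mean and SD over embryos (bars); right, COX7A2, TOMM22 and MRPS34 plotted against TOMM7 in the same samples. IVF embryos form the low end of all 3 scatter plots among embryos, and within IVF embryos the r of MRPS34 with TOMM7 is -0.24.

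Other nuclear genes of the same processes were read from lists outside the naming rule. Of 25 genes of mitochondrial protein quality, import and assembly, 1 rose and 5 fell in IVF against AI embryos (4% and 20%, against 13.2% and 15.9% of all genes). The 5 were COX17 (-1.18 ± 0.17), the pore assembly protein SAMM50 (-1.01 ± 0.15), the chaperonin pair HSPE1 (-0.99 ± 0.14) and HSPD1 (-0.95 ± 0.24) and the iron-sulfur assembly protein ISCA1 (-0.64 ± 0.16), with adjusted p of 6.78e-07 to 0.00241. Between NT and AI embryos 0 of 25 passed in limma, where only 3.55% of all genes rose and 4.41% fell. Against IVF embryos NT embryos were higher in 6 and lower in 1 (24% and 4%, against 14.1% and 10.1% of all genes). The lower gene was ECSIT, which turned from -0.32 to 0.05 without centring. Of 16 genes of mitochondrial gene expression, 2 rose and 4 fell in IVF against AI embryos (12.5% and 25%, against the same shares of all genes). Among those that fell were HSD17B10, a subunit of mitochondrial RNase P (-1.28 ± 0.21, adjusted p = 5.79e-06), the single-stranded DNA-binding protein SSBP1 (-0.86 ± 0.20) and the ribosome subunit CHCHD1 (-0.67 ± 0.16). HARS2, the mitochondrial histidyl-tRNA synthetase, was the only gene of that list that rose in NT over AI embryos (1.09 ± 0.22, adjusted p = 8.85e-04), where 3.55% of all genes rose. Of 10 membrane transport genes 2 rose in IVF over AI embryos, the calcium uniporter MCU (0.78 ± 0.23, adjusted p = 0.00834) and the channel VDAC1 (0.49 ± 0.18, adjusted p = 0.0297), and 0 fell. Of all genes 13.2% rose and 15.9% fell. VDAC1 lost its call without centring and with either dye orientation alone. No test of the lists was made.

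The subunits that the mitochondrial ribosome's products join were set beside these. Of 48 respiratory chain and ATP synthase subunits 0 rose and 36 fell in IVF against AI embryos, with a median of -0.56, against 13.2% and 15.9% of all genes. NT minus AI gave 0 higher and 3 lower (-0.14), and NT minus IVF 28 higher and 2 lower (0.44). Of 51 cytosolic ribosomal proteins, 2 rose and 30 fell in IVF against AI (-0.36), 0 rose and 24 fell in NT against AI (-0.37), while NT minus IVF gave 9 higher and 6 lower (-0.01). For the 39 mitochondrial ribosomal protein genes the counts in the same order were 2 and 17, 0 and 3, and 13 and 1. The shares of all genes were 13.2% and 15.9%, 3.55% and 4.41%, and 14.1% and 10.1%. Without centring, NT minus AI turned to 12 higher and 0 lower for the respiratory chain and to 7 and 2 for cytosolic ribosomal proteins, against 45.0% and 0.432% of all genes, while the falls in IVF against AI embryos were 24 and 16, against 8.05% of all genes. No test of a difference between these lists was made.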

How the data were processed

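RNA of 44 single bovine blastocysts and 2 donor cell samples was hybridised against a common reference on 92 arrays of a custom cDNA platform, 2 per sample with swapped dyes. The authors deposited log2 dye ratios. How they corrected the background and normalized is not given in the sources used here. The value 16.61, which filled 2657 cells, was taken as missing. The sign of a ratio was changed where Cy3 marked the sample, duplicate spots averaged, each array centred on its median probe and the arrays of a sample averaged, with both required. Probes of 1 gene symbol were averaged, and 95 probes with several symbols (6 of them with a symbol of the set) and 2515 without a symbol were left out. A gene needed values in 50% of the embryos of each kind.

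Group means over 46 samples were fitted with limma 3.58.1 (R 4.3.3), with empirical Bayes moderation and Benjamini-Hochberg adjustment over 4398 genes, and scripts were tested on simulated data. Genes were named with values when past an adjusted p of 0.05 between kinds of embryo (beyond 14 in 1 direction, the 14 largest), for the 6 largest changes against donor cells, the smallest p in each role, the extreme spreads and the likeness to TOMM7. The members and lists were chosen with earlier results of these data known. Alternatives were no centring, quantile normalization, a common median absolute deviation, each dye orientation alone, 80% completeness, 1 probe per gene, the compared groups alone, embryos of 1 label, a block for shared numbers and leaving out each sample. Intensities, spot flags and slides were not used here, so no background, dim-probe or slide alternative was run.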

Additional observations from a re-analysis of the deposited data

How the results depend on the processing

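Values are counts of the 66 genes higher and lower, and medians or single genes are log2 differences. Without centring they were 3 and 12 for IVF minus AI, 17 and 0 for NT minus AI, 37 and 0 for NT minus IVF, 12 and 1 for AI minus donor, 8 and 3 for IVF minus donor, and 1 lower for NT minus donor. Between embryos the shares of all genes were 7.82% and 8.05%, 45.0% and 0.432%, and 38.9% and 1.02%. Against donor cells they were 10.7% and 15.7%, 9.25% and 14.3%, and 8.50% lower. The median then was 0.33 for NT minus AI and 0.55 for NT minus IVF, and TOMM7 was at -0.17 and 1.41. Uncentred values turned in sign for NT minus AI in MRPL33 (0.067), MTRF1L (0.12) and TIMM23 (0.063), and for NT minus IVF in TIMM23 (0.010) and TOMM20 (0.00865). With Cy3 arrays alone IVF minus AI gave 3 and 17, NT minus AI 2 lower with SLC25A6 at -0.062, AI minus donor 1 lower and IVF minus donor 3 lower. The shares of all genes were 13.3% and 11.9%, 1.76%, 11.6% and 12.1%. With Cy5 arrays alone NT minus AI gave 4 and 12, and AI, IVF and NT minus donor 18, 7 and 12 higher. The shares of all genes were 4.82% and 8.07%, and 13.9%, 11.5% and 13.1%. With NT embryos labelled 2_ alone, 0 genes were higher than in AI and 12 higher than in IVF embryos in limma, against 56 and 403 of 4398. With those labelled 3_ alone, 1 was higher and 2 lower than in AI and 0 lower than in IVF embryos. Of all 4398 genes, 83, 90 and 244 were. AI minus donor gave 1 lower with quantile normalization and with the compared groups alone, and IVF minus donor 3 lower with 1 probe per gene and with the compared groups alone. Of all 4398 genes, 705, 672, 663 and 646 were lower in that order. The 1 gene that set H-labelled AI embryos apart was lost (0) without centring, with quantile normalization, with a common median absolute deviation and with Cy3 arrays alone.

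Leaving out 1 sample at a time gave 5 to 7 higher and 22 to 27 lower for IVF minus AI, 2 to 3 and 5 to 8 for NT minus AI, and 15 to 19 and 3 to 5 for NT minus IVF. Of 4398 genes, 535 to 583 and 664 to 710, 117 to 168 and 161 to 205, and 575 to 619 and 402 to 460 were. Against donor cells it gave 19 to 28 and 1 to 3 for AI, 11 to 18 and 2 to 5 for IVF, and 16 to 26 and 1 to 2 for NT embryos. For each kind of embryo the fewest rises over donor cells came with only 1 donor sample left. Rises over all genes were fewer there too. With an embryo left out instead, 876 to 905 of 4398 genes rose and 713 to 736 fell for AI. For IVF these were 791 to 826 and 692 to 710, and for NT embryos 860 to 887 and 664 to 681. TOMM7 stayed at -1.68 to -1.57 for IVF minus AI, -0.62 to -0.55 for NT minus AI and 0.98 to 1.09 for NT minus IVF.

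AI and IVF embryos share 7 numbers, and the labels do not say whether equal numbers mean a pair. Deviations of same-numbered embryos correlated with r of -0.06 to 0.09. An r over all genes cannot show whether they are paired, since a shared factor may touch few genes. With the replicate block over these 14 embryos 2 genes were higher and 11 lower, and in the same embryos without the block, an alternative chosen after seeing the data, 2 and 15. Of all 4398 genes, 211 were higher and 250 lower with the block, and 290 and 386 without it. TOMM7 was at -1.56 with the block.

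The arrays limit precision by their number. Against donor cells the SE and p-values rest on a spread pooled over all 46 samples, most of them embryos. The spread among donor cells themselves is hardly measured by 2 samples.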
